A study of Mus musculus with 6 samples.

Results

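The genes described here are 39 that fold, check and remove proteins in the endoplasmic reticulum (ER), or that sense and answer ER stress. They were taken from a fixed list of gene symbols. Of the 39, 35 matched a probeset by symbol, and Ero1l, Ero1lb, Selk and Vimp matched through RefSeq synonyms as Ero1a, Ero1b, Selenok and Selenos. All 39 gave a signal above the detection level on all 6 arrays, among 15145 genes tested and 19288 with a probeset of their own.

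RNA from mouse embryonic fibroblasts in culture was read on 6 Affymetrix arrays, 3 for each of 2 groups, which the labels call biological replicates. One group carried the construct shSCR and the other shARF, a short hairpin RNA whose name gives its target as ARF, the tumour suppressor protein of the Cdkn2a locus. All 6 sample titles carry the word Ras, and the series title calls the cells of both groups dp53R. What that name stands for, the number of clones and the embryos behind the cells are not given in the sources used here. The labels do not say whether replicates were separate cultures, so the p-values measure only the spread between these samples, which may be technical. A fall or rise of a transcript per cell and a shift in the kinds of cells present cannot be told apart in such bulk samples.

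Secreted and membrane proteins enter the ER through the SEC61 channel and are folded there by the HSP70 chaperone BiP, the HSP90 chaperone GRP94, the lectins calnexin and calreticulin, and protein disulfide isomerases. Proteins that fail to fold are passed back to the cytosol for degradation by the proteasome. When unfolded proteins gather, the membrane sensors IRE1, PERK and ATF6 start the unfolded protein response, in which XBP1, ATF4 and cleaved ATF6 raise transcription of chaperone and degradation genes. Fibroblasts secrete large amounts of collagen and fibronectin and therefore carry a well-filled ER.

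Many of these genes are read by ATF6 and XBP1 through a short promoter sequence, the ER stress element ERSE, written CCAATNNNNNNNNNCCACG. RefSeq promoter windows (GRCm38.p6, 250 bases before to 50 after a gene's start) were found for 34 of the 39 genes, with no entry matched for Hyou1, Manf, Derl1, Atf6 and Ppp1r15b. ERSE, searched on both strands, stood in the windows of 10 genes: Hspa5, Hsp90b1, Creld2, Dnajc3, Calr, Canx, Pdia6, Ero1b, Syvn1 and Derl3. It stood in 0.15% of the 11961 tested genes with a window, or 18 genes, and in 0.119% of all 32851 windows. A match is a description of letters and not a measured binding site. The stretches below show the element where it lay before the start of a lumenal chaperone, a co-chaperone, a lectin, a disulfide isomerase and a degradation enzyme, and the related element ERSE-II (ATTGGNCCACG) in Herpud1. Capitals mark the letters that the motif fixes, and each stretch runs 5′ to 3′ along the gene.
Hspa5, chr2:34772010-34772058, plus strand: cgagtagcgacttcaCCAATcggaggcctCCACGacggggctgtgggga
Creld2, chr15:88819505-88819553, plus strand: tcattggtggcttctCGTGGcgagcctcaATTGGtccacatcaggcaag
Dnajc3, chr14:118937812-118937860, plus strand: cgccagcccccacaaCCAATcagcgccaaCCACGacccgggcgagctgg
Canx, chr11:50325785-50325833, minus strand: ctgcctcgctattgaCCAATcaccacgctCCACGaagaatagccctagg
Pdia6, chr12:17266476-17266524, plus strand: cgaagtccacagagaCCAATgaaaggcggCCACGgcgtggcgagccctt
Syvn1, chr19:6046517-6046565, plus strand: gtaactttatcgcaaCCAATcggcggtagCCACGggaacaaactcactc
Herpud1, chr8:94386362-94386402, plus strand: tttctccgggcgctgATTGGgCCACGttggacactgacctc

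ERSE-II stood in 2 of the 34 genes, Herpud1 and Dnajb11, and in 0.0365% of all windows. The core of the unfolded protein response element, TGACGTG, stood in Hspa5 alone and in 2.01% of all windows, and read on the other strand it can share letters with CCACG. The core of the amino acid response element read by ATF4, TGATGNAA, stood in Herpud1 alone and in 3.97% of all windows. Both were searched on both strands.

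The signal of Cdkn2a, the locus of the hairpin's target, was lower in the shARF group. Its probeset is assigned to the gene as a whole, so the ARF transcript was not measured by itself. Signals are on the linear RMA scale and are listed in the order of replicates 1, 2 and 3. Differences are shARF minus shSCR on the log2 scale, with the standard error after the ± sign. Cdkn2a read 535, 539 and 516 with shSCR against 315, 254 and 286 with shARF, a fall of 0.90 ± 0.086 (limma, adjusted p = 0.00459). Of the fibroblast markers 12 of 12 were above the detection level (each array's 25th percentile), summing to 22312 to 23978 with shSCR and to 24334 to 24939 with shARF, and 1 of the 12, the matrix gene Lum, rose. Lum differed by 1.28 (limma, adjusted p = 0.0276). Without passing, 5 others did not overlap and were higher (Dcn at 0.71, Col3a1 at 0.30, Col1a1 at 0.18, S100a4 at 0.16 and Fn1 at 0.13). Another 3 did not overlap and were lower (Thy1 at -0.38, Fap at -0.25 and Pdgfra at -0.22). With Lum, 9 of the 12 fibroblast markers did not overlap (75%), beside 28.6% of all genes. Of the macrophage markers, Ptprc, Csf1r, Adgre1, Itgam and Lyz2 were not above it. The summed signal of all 7, detected or not, was 169 to 198 against 167 to 192. Without passing, Cd68 did not overlap and was lower, at -0.36, while Cd14 overlapped, at 0.12. Of the lymphocyte and plasma cell markers, Cd79a, Ms4a1 and Jchain were not above the detection level either. Plasma cells are known for a large ER. The 6 markers of that list, of which 3 were detected, summed to 243 to 255 in shSCR and 227 to 248 in shARF. Without passing, the dim Mzb1 did not overlap and was higher, at 0.19. Cd3e and Sdc1 overlapped, at -0.17 and -0.05. Of 5 endothelial markers 4 were detected, Tek not, and all 5 summed to 83.0 to 87.8 in shSCR and 81.8 to 88.8 in shARF. Without passing, the dim Cdh5 did not overlap and was higher, at 0.32. Kdr, Tie1 and Pecam1 overlapped, at -0.07, -0.07 and -0.03. Of 6 epithelial markers 5 were detected, Cdh1 not, and all 6 summed to 450.3 to 479.9 in shSCR and to 519 to 656 in shARF. The epithelial keratin gene Krt18 rose (limma, adjusted p = 0.0370), a call that was lost for 5 of the 6 arrays when each was left out. The other 4 detected ones did not pass, with Krt8 at 0.74, Epcam at 0.14, Krt19 at -0.20 and Cldn4 at -0.23. The part of these markers in the results below was not tested.

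None of the 39 ER genes passed the test between shARF and shSCR cells, while most of them measured slightly higher with the hairpin against ARF. In limma with Benjamini-Hochberg adjustment over all tested probesets, 0 of 39 were called, where 4.01% of all genes were (1.62% higher and 2.38% lower). SAM (significance analysis of microarrays), the test that the study names, also called 0 of 39, beside 6.58% of all genes. At an unadjusted p under 0.05, limma gave 7 genes higher, beside 8.76% of all genes higher. With 1 gene lower this came to 20.5% of the 39, beside 22.2% of all genes in either direction. The difference was above 0 for 31 of the 39 (79.5%), beside 46.8% of all genes, in a list chosen with earlier results of these data known. When single arrays were left out, this count ran from 25 of 39 without shSCR replicate 1 (beside 7042 of 15020 genes) to 34 of 39. The 34 held without shSCR replicate 2 (beside 7048 of 15030 genes) and without shARF replicate 3 (beside 7182 of 15026). With all arrays the median difference of the 39 was 0.11 on the log2 scale, a ratio of 1.08, and the median over all genes was -0.01. Single genes ranged from -0.22 for Wfs1 to 0.35 for Sdf2l1, a ratio of 0.860 to 1.28. The upper end of limma's 95% interval lay under 1.5-fold for 36 of the 39, all but Sdf2l1, Dnajb9 and Herpud1.

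The 3 shARF arrays all lay above the 3 shSCR arrays for 10 ER genes (25.6% of the 39), beside 12.0% of all genes. They all lay below for 2, Atf6 and Wfs1 (5.13%), beside 16.6% of all genes. In either direction this gave 12 of 39 (30.8%), beside 28.6% of all genes. Arrays of 1 experiment share handling and normalization, and genes of 1 pathway are not independent of each other, so these shares are given as a description. The median difference leaned on single arrays: it was 0.17 without shSCR replicate 2, 0.07 without shSCR replicate 1 and 0.06 without shARF replicate 2.

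**Figure D1:**
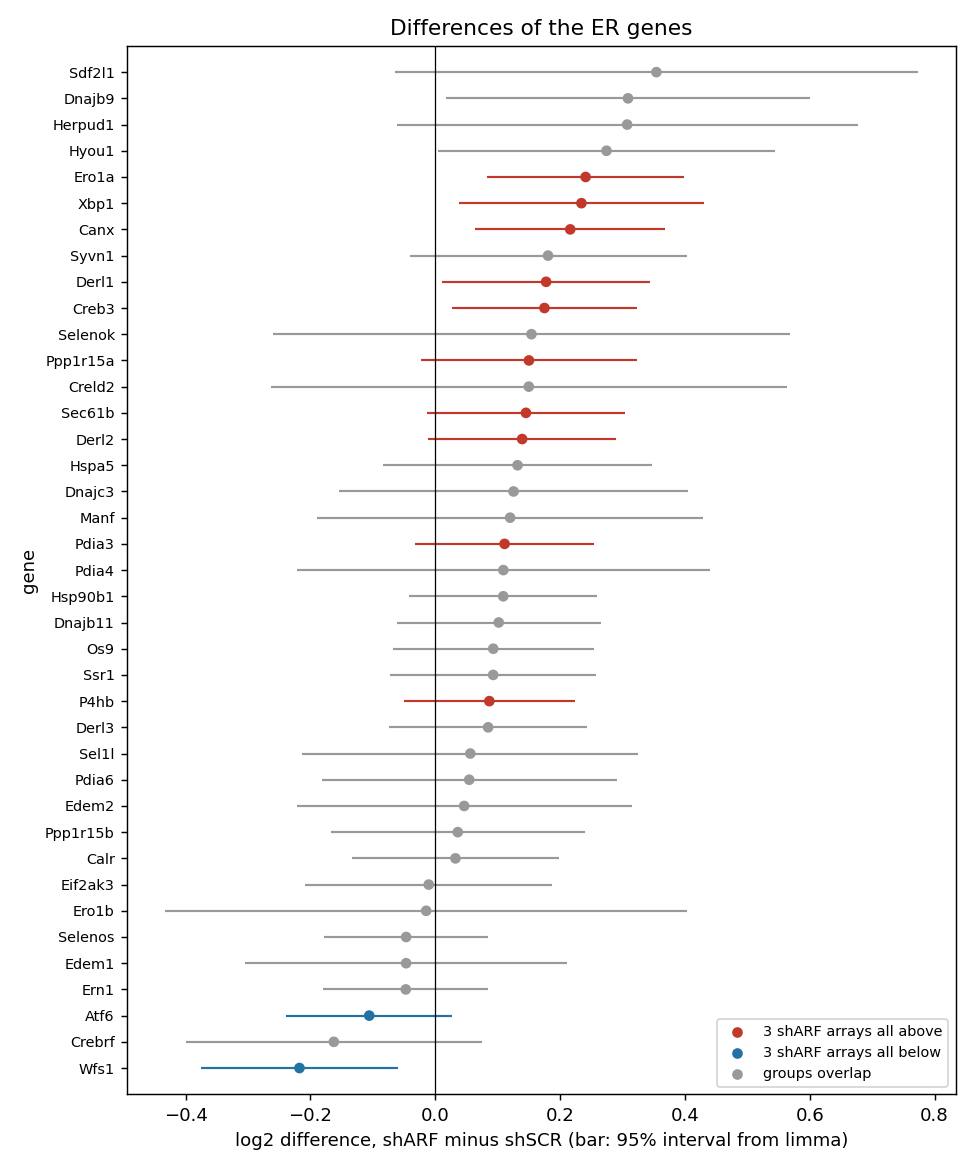
Log2 difference between shARF and shSCR for each of the 39 ER genes, with limma's 95% interval as a bar and 3 arrays in each group. Red marks the 10 genes whose shARF arrays all lay above the shSCR arrays, blue the 2 genes whose shARF arrays all lay below, and grey the genes whose groups overlapped.

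Lumenal chaperones measured higher on average with shARF, and the groups overlapped for all 6. Hspa5, which encodes BiP, the central HSP70 chaperone of the ER and the gatekeeper of the stress sensors, gave 3351, 4108 and 3590.2 in shSCR and 3855, 4325 and 3902 in shARF. Its shSCR replicate 2 array lay above 2 of the 3 shARF arrays, and the difference was 0.13 ± 0.092 (limma, adjusted p = 0.456). Hsp90b1, the gene of the ER chaperone GRP94, spanned 3779 to 4111 with shSCR and 4089 to 4417 with shARF, a difference of 0.11 ± 0.064. Hyou1, a nucleotide exchange factor for BiP, gave 530.1, 687 and 589 in shSCR and 674, 814 and 692 in shARF. Only shSCR replicate 2 overlapped the shARF arrays of Hyou1, by a small margin, and the difference of 0.27 ± 0.115 did not pass (limma, adjusted p = 0.236).

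On the log2 scale, shSCR replicate 2 stood highest above the other shSCR arrays for Sdf2l1, Creld2 and Manf among the lumenal genes. Sdf2l1, a partner of BiP that keeps unfolded proteins soluble, gave 389.7, 611 and 380.3 in shSCR and 554, 624 and 547 in shARF. Its shSCR replicate 2 value stood with the shARF arrays, far above the other shSCR arrays, and the difference was 0.35 ± 0.179 (limma, adjusted p = 0.314). Creld2, which encodes a secreted ER stress protein with disulfide isomerase-like features, gave 367, 581 and 424 in shSCR and 444, 581 and 479.6 in shARF. Manf, a secreted protein that is retained in the ER until calcium runs low, gave 525, 747 and 605 in shSCR and 622, 733 and 667 in shARF. In both Creld2 and Manf the replicate 2 arrays of the groups were nearly level. The differences of 0.15 ± 0.176 and 0.12 ± 0.132 were no larger than their errors in the main fit. With the replicate number added to the fit as a block, both errors were 0.079, smaller than the differences. Neither gene passed in that fit (limma, adjusted p = 0.356 and 0.445).

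The BiP co-chaperones differed in their pattern over arrays. Dnajb9 encodes ERdj4, a J-domain protein that brings BiP to the sensor IRE1. It gave 183, 219.5 and 189.9 in shSCR and 273, 204 and 259.9 in shARF, a difference of 0.31 ± 0.124 (limma, adjusted p = 0.219). Here the overlap came from both replicate 2 arrays, since the shARF one was the lowest of its group and the shSCR one the highest. Dnajb11, a co-chaperone bound to unfolded substrates, measured 1184 ± 62.6 (SD, n = 3) in shSCR and 1270.3 ± 65.9 in shARF. Dnajc3, the gene of p58IPK, measured 1314 ± 191 and 1428 ± 144.

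Of the lectin chaperones, calnexin separated the groups and calreticulin did not. Canx, which encodes the membrane-bound lectin that holds newly made glycoproteins, gave 2231, 2359 and 2413 in shSCR and 2588, 2835 and 2715 in shARF. All shARF arrays lay above all shSCR arrays, and the difference was 0.22 ± 0.065 (limma, adjusted p = 0.126). With a trended, robust prior limma called Canx (adjusted p = 0.0118). Calr, its soluble partner calreticulin, spanned 3015 to 3342 with shSCR and 3087 to 3429 with shARF, a difference of 0.03 ± 0.071. The sign of the Calr difference turned when the arrays were quantile normalized once more, to -0.02.

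Of the 6 disulfide enzyme genes 5 measured higher with shARF, with a median of 0.10. Ero1a encodes an oxidase that recharges protein disulfide isomerase and had the smallest p of the 39. It gave 578, 652 and 597 in shSCR and 699, 723 and 735 in shARF, without overlap, and the difference was 0.24 ± 0.067 (limma, adjusted p = 0.107). Ero1a was the other of the 2 genes that limma called with a trended, robust prior (adjusted p = 0.0262), a setting in which 8.46% of all genes were called. Its paralogue Ero1b gave 45.0, 66.7 and 40.0 in shSCR and 47.9, 52.6 and 46.2 in shARF, so that shSCR replicate 2 was the highest of all 6. The Ero1b difference was -0.01 ± 0.178, and it turned to 0.15 without both replicate 2 arrays and to 0.00 after a further quantile normalization.

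The isomerase genes proper measured slightly higher with shARF, by 0.05 to 0.11, beside a median of 0.11 over the 39. P4hb, the gene of protein disulfide isomerase itself, gave 2468, 2506 and 2429.8 in shSCR and 2553, 2734 and 2579 in shARF. Pdia3, the isomerase that works with calnexin and calreticulin, gave 1985, 2069 and 1973 in shSCR and 2145, 2093 and 2274 in shARF. Neither P4hb nor Pdia3 overlapped between groups, with differences of 0.09 ± 0.058 and 0.11 ± 0.061 that did not pass (limma, adjusted p = 0.442 and 0.352). Pdia4 and Pdia6 overlapped, at 0.11 ± 0.141 and 0.05 ± 0.101, and in both the replicate 2 array was the highest of each group.

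Degradation genes held 9 of 11 differences above 0, with a median of 0.09. Derl1 and Derl2 encode derlins, membrane proteins of the channel through which misfolded proteins leave the ER. Derl1 gave 597, 647 and 573 in shSCR and 662, 721 and 671 in shARF, a difference of 0.18 ± 0.071 (limma, adjusted p = 0.218). Derl2 gave 434, 425 and 418 in shSCR and 473, 493 and 442 in shARF, a difference of 0.14 ± 0.064 (limma, adjusted p = 0.274). Both derlins separated the groups by a narrow gap, and Derl3, the dimmest of the 3, did not, at 31.4 ± 2.05 (SD, n = 3) in shSCR and 33.2 ± 0.735 in shARF.

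Herpud1, a membrane scaffold of the degradation complex and a strong target of ER stress, gave 411, 632 and 427 in shSCR and 585, 616 and 583 in shARF. The highest of its 6 values was shSCR replicate 2, while the other shSCR arrays lay well below every shARF array. The difference of 0.31 ± 0.157 did not pass (limma, adjusted p = 0.321). Syvn1, the ubiquitin ligase HRD1, gave 332, 399 and 314 in shSCR and 403, 388 and 387 in shARF, again with only shSCR replicate 2 inside the shARF range, and differed by 0.18 ± 0.095. Its partner Sel1l and the mannosidase-like genes Edem1 and Edem2, which pick out glycoproteins for degradation, differed by 0.06 ± 0.115, -0.05 ± 0.110 and 0.05 ± 0.114. Os9, a lectin that also selects such glycoproteins, differed by 0.09 ± 0.069, and the selenoprotein genes Selenok and Selenos by 0.15 ± 0.176 and -0.05 ± 0.056. Selenok lay near the detection level, from 20.2 to 31.6 over the 6 arrays against a level of at most 14.9, and a pseudogene of it carries a probeset of its own, so its value is uncertain.

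Of the 6 stress sensors and factors 2 measured higher with shARF and 4 lower, with a median of -0.03. Xbp1, the factor that IRE1 activates by splicing its messenger RNA, gave 294, 344 and 301 in shSCR and 361, 393 and 349.9 in shARF. Its groups did not overlap, and the difference was 0.23 ± 0.083 (limma, adjusted p = 0.177). A gene-level probeset reads spliced and unspliced Xbp1 together, so splicing was not measured. Creb3, a membrane-bound factor related to ATF6, gave 425, 417 and 405 in shSCR and 466, 495 and 447 in shARF, without overlap, and differed by 0.18 ± 0.063 (limma, adjusted p = 0.182).

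The sensor genes measured close to level or lower. Atf6 gave 319, 313 and 306 in shSCR and 283, 297 and 292 in shARF. All shARF arrays of Atf6 lay below the shSCR arrays, by -0.11 ± 0.057 (limma, adjusted p = 0.342). Ern1, the gene of IRE1, gave 60.3 ± 1.03 (SD, n = 3) and 58.4 ± 1.54, and Eif2ak3, the gene of PERK, gave 113 ± 6.50 and 113 ± 10.1. Crebrf, a regulator of CREB3, differed by -0.16 ± 0.101 with overlap.

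Ppp1r15a encodes GADD34, the stress-induced subunit that restarts translation by removing phosphate from eIF2alpha. It gave 147, 171 and 166 in shSCR and 183, 178 and 176 in shARF, without overlap, and differed by 0.15 ± 0.074 (limma, adjusted p = 0.306). Its constitutive counterpart Ppp1r15b differed by 0.04 ± 0.087 on the brighter of its 2 probesets and by -0.11 on the other, so the direction depends on the probeset. Wfs1, the ER membrane protein wolframin that bears on calcium and on ATF6 turnover, had the lowest of the 8 differences below 0. It gave 171, 180.3 and 166 in shSCR and 156, 140.5 and 149 in shARF, without overlap, a difference of -0.22 ± 0.067 (limma, adjusted p = 0.134).

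Both translocation genes measured higher. Sec61b, a subunit of the channel, gave 2102, 2107 and 1886 in shSCR and 2307, 2182 and 2246 in shARF, without overlap, and differed by 0.15 ± 0.068 (limma, adjusted p = 0.282). All 3 of its probesets separated the groups, with differences of 0.15, 0.18 and 0.15. In each of the 3, shSCR replicate 3 was the lowest array and shARF replicate 1 the highest. Probesets of 1 gene read on the same 6 arrays are not independent of each other. Ssr1, a subunit of the complex beside the channel, differed by 0.09 ± 0.070 with overlap. Of the other genes with several probesets, the 2 of Dnajc3 held the same 6 values, and the dimmer one of Pdia4 differed by 0.01.

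**Figure D2:**
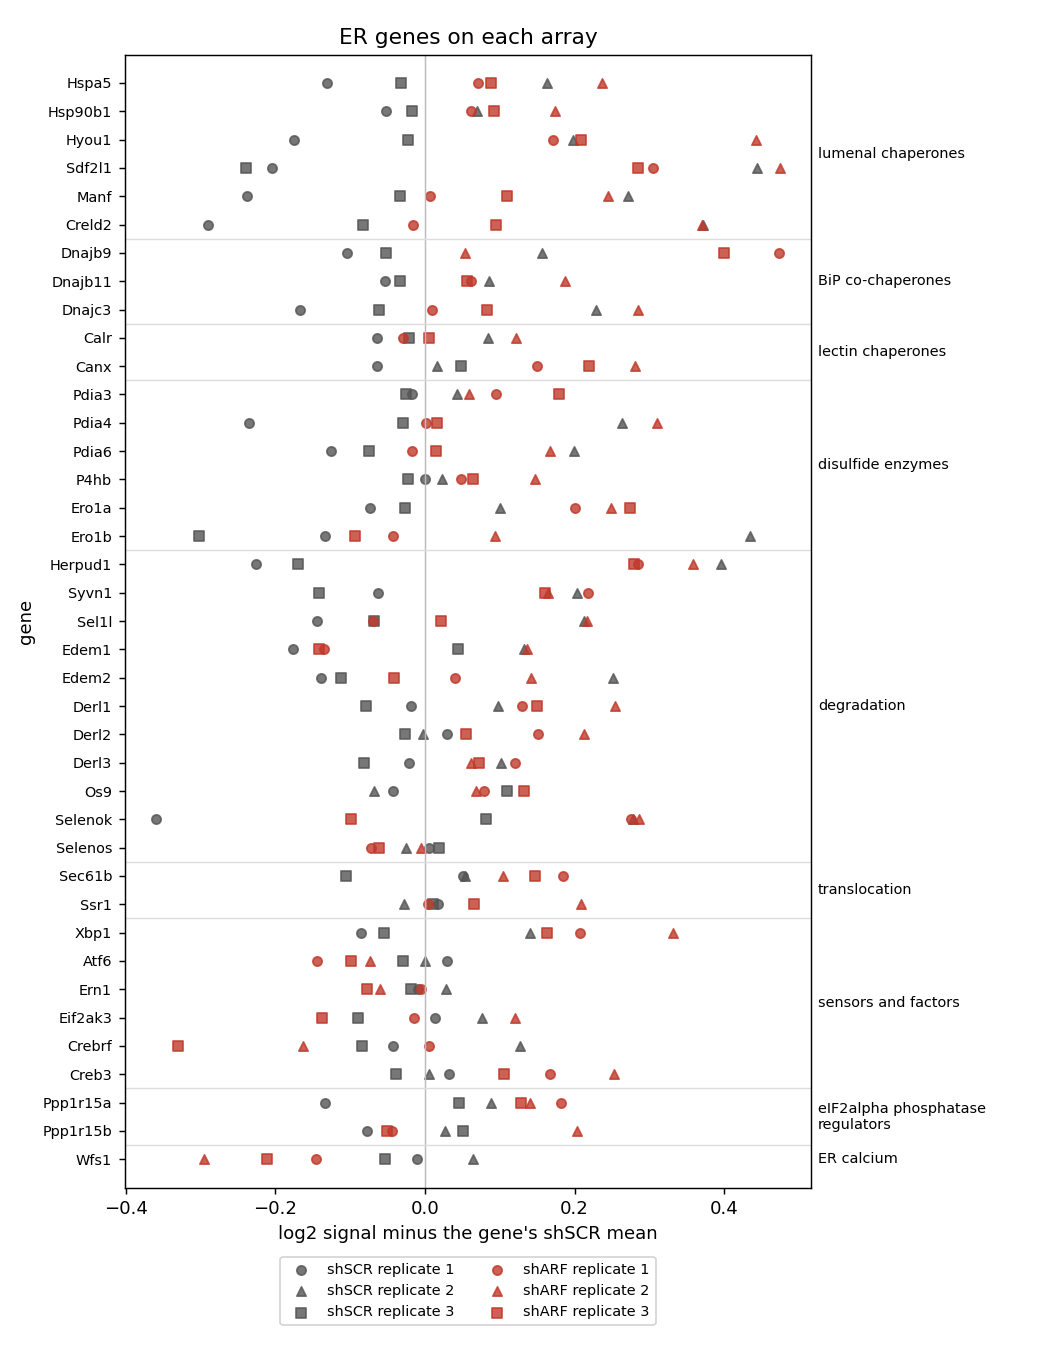
Log2 signal of each ER gene on each array minus the gene's mean over the 3 shSCR arrays, by role. Grey symbols are shSCR and red symbols shARF, with circles, triangles and squares for replicates 1, 2 and 3. The grey triangle lies to the right of the other grey symbols for 31 of the 39 genes.

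The replicate 2 array was the highest of its group for most ER genes, in both groups. In shSCR it was the highest for 31 of the 39 (79.5%), beside 33.9% of all genes, and in shARF for 28 (71.8%), beside 38.96% of all genes. Both held for 21 genes, or 53.8%, beside 13.3% of all genes. The lowest of the 6 arrays was shSCR replicate 1 for 21 genes (53.8%), beside 15.8% of all genes. Relative to the shSCR mean, the median over the 39 genes was -0.06, 0.10 and -0.03 for the shSCR arrays in replicate order. For the shARF arrays it was 0.06, 0.17 and 0.07. The corresponding medians over all genes lay between -0.02 and 0.00 on every array. The shSCR replicate 2 median of the ER genes thus lay above those of shARF replicates 1 and 3.

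The size of the replicate 2 step varied by gene. In shSCR, replicate 2 exceeded the mean of replicates 1 and 3 by 0.67 for Sdf2l1, 0.65 for Ero1b, 0.59 for Herpud1, 0.56 for Creld2, 0.42 for Selenok, 0.41 for Manf and 0.40 for Pdia4 on the log2 scale. The step was -0.10 for Os9, 0.00 for Atf6 and 0.01 for Creb3. In shARF the largest steps were 0.33 for Creld2, 0.30 for Pdia4 and 0.27 for Edem1, and Dnajb9 had the opposite sign at -0.38. Across the 39 genes the steps of the groups correlated with a Pearson r of 0.36 and a Spearman rho of 0.45, and across all 15145 genes r was 0.05. Over the same 39 genes, deviations from the group mean gave r of 0.25 for both replicate 1 arrays and 0.04 for both replicate 3 arrays. For shSCR replicate 1 with shARF replicate 3, r was 0.40, above that of the replicate 2 arrays. Such an r leaves out a shift shared by the genes, and a gene's deviations within a group sum to 0. The r values thus depend on each other and do not rank how alike the arrays were. These are correlations across genes, which share arrays and are not independent replicates.

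The replicate 2 step was set beside the promoter element. The median step in shSCR was 0.27 for the 10 genes with ERSE and 0.13 for the 24 with a window without it. Replicate 2 was the highest shSCR array for 9 of the 10, the exception being Canx, beside 31 of all 39 (79.5%). The median difference between shARF and shSCR was 0.12 for the 10 and 0.11 for the 24. Of the 8 tested genes outside the list whose windows held ERSE, replicate 2 was the highest shSCR array for 2, Alg12 and Zfp57, and 0 passed limma's test. No test was made of these medians, since the genes were chosen with results of these arrays known.

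**Figure D3:**
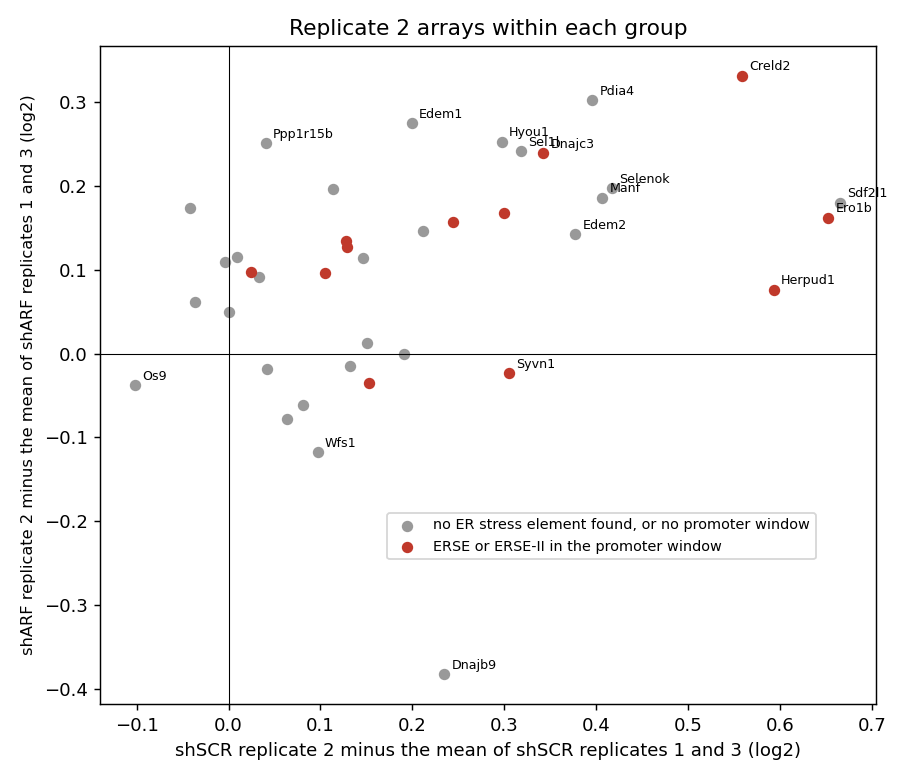
Replicate 2 minus the mean of replicates 1 and 3 in shSCR (horizontal, log2) and in shARF (vertical, log2), with 1 point for each of the 39 ER genes. Red points are the 12 genes whose promoter window held ERSE or ERSE-II. Most points lie right of 0 and above 0, and Sdf2l1, Ero1b, Herpud1 and Creld2 lie farthest to the right.

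Leaving out arrays changed which ER genes separated the groups. Without shSCR replicate 2, limma called 2 of the 39, beside 2.03% of all genes: Herpud1 at 0.51 ± 0.071 (adjusted p = 0.0285) and Sdf2l1 at 0.58 ± 0.085 (adjusted p = 0.0328). Over all alternatives tried their adjusted p in limma or q in SAM ran up to 0.576 and 0.564. Without that array, 26 of the 39 genes had all shARF values above both remaining shSCR values (66.7%), beside 16.9% of all genes, and 3 had all below (7.69%), beside 20.9%. That array was the highest shSCR array for 79.5% of the 39 and for 33.9% of all genes. Leaving it out therefore favours such a gap, and no conclusion is drawn from it. The same counts without other single arrays are not given here. When both replicate 2 arrays were left out the counts were again 26 and 3, beside 22.5% and 28.5% of all genes, and limma called 0 of 39, beside 1.02% of all genes, with 7 at an unadjusted p under 0.05 (17.9%, beside 17.8% of all genes). In that setting Sdf2l1, Dnajb9 and Herpud1 differed by 0.52 ± 0.073, 0.51 ± 0.077 and 0.48 ± 0.074 (limma, adjusted p = 0.0638, 0.0709 and 0.0721). No label marks replicate 2 as a batch or as a failed array, and the values elsewhere are those of all 6 arrays.

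The 7 other lists held 120 measured genes, of which 5 passed limma's test (4.17%, near the 4.01% of all genes) and 74 differences were above 0 (61.7%). The share above 0 ran from 44.4% in the translocon and glycosylation lists to 78.9% for other disulfide and prolyl enzymes and 92.3% for heat shock genes outside the ER, beside 79.5% of the 39. Of 18 measured genes of the translocon, signal recognition and signal peptidase, 0 passed limma's test or SAM, 1 had an unadjusted p under 0.05, and 8 differences were above 0, with a median of -0.01. Among these Sec63, a BiP-recruiting partner of the channel, differed by -0.14, Srp72 of the signal recognition particle by 0.12 and Ssr3 by 0.09. Of 18 genes of N-glycosylation and the calnexin cycle, 0 passed limma's test or SAM, 4 had an unadjusted p under 0.05, and 8 were above 0, with a median of -0.01. Mogs, the glucosidase that makes the first cut in the glycan, differed by -0.27 and Ganab, the glucosidase that makes the next cuts, by -0.22, while Ostc of the oligosaccharyltransferase differed by 0.22 and Mcfd2 by 0.19. Of 19 other degradation genes, 0 passed limma's test, SAM called 1 (Fam8a1, lower), 3 had an unadjusted p under 0.05, and 9 were above 0, with a median of -0.0047. Fam8a1, a cofactor of HRD1, differed by -0.33, Herpud2, a relative of Herpud1, by 0.21, and Ube2j1, a ubiquitin-conjugating enzyme of the ER membrane, by 0.20.

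Of 19 other disulfide and prolyl enzymes, 15 differences were above 0, with a median of 0.10, and 1 gene rose. Erp29, a disulfide isomerase relative without isomerase activity, gave 312, 342 and 315 in shSCR and 399, 433 and 391 in shARF and rose by 0.34 ± 0.069 (limma, adjusted p = 0.0486). That call needed all 6 arrays, since it was lost when each was omitted (adjusted p 0.0792 to 0.150 in limma). Qsox1, a sulfhydryl oxidase, differed by -0.26 and Plod1, a lysyl hydroxylase of collagen, by 0.27, and neither passed.

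Of 18 other stress factors and targets, 2 rose and 12 differences were above 0, with a median of 0.10. Nupr1, a stress-induced nuclear protein, gave 833, 900.3 and 866 in shSCR and 1191, 1216 and 1188 in shARF and rose by 0.47 ± 0.059 (limma, adjusted p = 0.0102), a call lost without shSCR replicate 3 (adjusted p = 0.0508). Eif2ak2, the interferon-induced eIF2alpha kinase PKR, gave 183, 195 and 176 in shSCR and 280.1, 298 and 249 in shARF and rose by 0.58 ± 0.084 (limma, adjusted p = 0.0155). Its call was lost without shSCR replicate 1, shSCR replicate 3 or shARF replicate 1 (highest adjusted p in limma 0.0717). Crebzf, a repressor related to ATF6, differed by -0.22 and did not pass, and neither did Sesn2, a stress-induced regulator of growth, at 0.29.

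Of 15 genes of COPII vesicles and ER exit, Tmed10 rose and 10 differences were above 0, with a median of 0.02. Tmed10, a cargo receptor of early secretory vesicles, gave 1494, 1559.6 and 1459 in shSCR and 2044, 2021 and 2102 in shARF and rose by 0.45 ± 0.058 (limma, adjusted p = 0.0110). Sec16a, which marks ER exit sites, differed by 0.28 and did not pass. Of 13 measured genes of the heat shock response outside the ER, Hspb8 rose and 12 differences were above 0, with a median of 0.09. Hspb8, a small heat shock protein that works with BAG3 in autophagy, gave 411, 405 and 423 in shSCR and 567, 602 and 545 in shARF and rose by 0.47 ± 0.063 (limma, adjusted p = 0.0123). Tmed10 and Hspb8 each lost the call without shSCR replicate 1 or shSCR replicate 3 (highest adjusted p in limma 0.0553 for both).

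**Figure D4:**
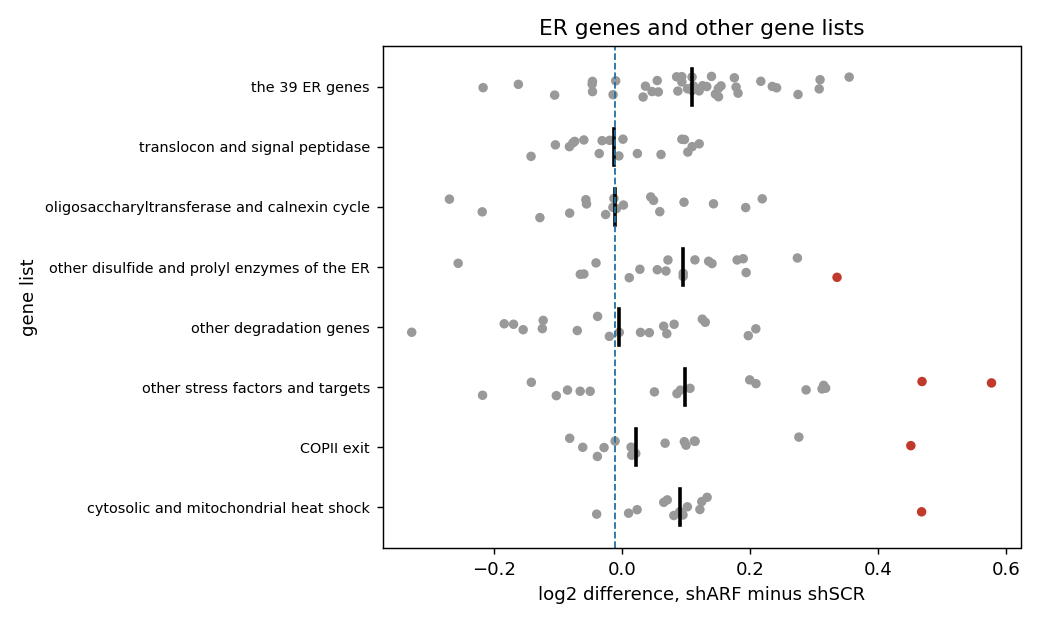
Log2 difference between shARF and shSCR for each measured gene of the 39 ER genes and of 7 other lists, with vertical position within a list spread at random. Black bars are list medians, the dashed line is the median of all 15145 genes, and red points are the 5 genes that passed limma's test, none of them among the 39.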

How the data were processed

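RNA of 6 fibroblast samples was hybridised to Affymetrix gene-level arrays. The authors made the deposited intensities, which are on a linear scale, with RMA (background correction, quantile normalization and a summary per probeset) in Affymetrix Expression Console, per the submitters' processing notes, which give no version here. Quantile normalization hides a shift common to most genes, and RMA makes folds of dim genes smaller. The deposited intensities were turned to log2 here. Array medians were 41.97 to 42.86. Precision is limited by the number of arrays.

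Probesets with 1 gene symbol in the platform annotation were used (21056 of 26851), and the probeset with the highest mean stood for a gene. A probeset was tested if its value passed the array's 25th percentile on at least 3 of the 6 arrays, which left 20310. The 3 shARF arrays were set against the 3 shSCR arrays by a two-sided limma fit (version 3.58.1, R 4.3.3, lmFit and eBayes), with Benjamini-Hochberg adjustment over all tested probesets and a threshold of 0.05. Errors of differences are standard errors on the log2 scale. The fit and SAM were tested on simulated data. Promoter windows and names came from RefSeq tables of GRCm38.p6. Every ER gene is accounted for; full values were planned for genes that passed, genes whose groups did not overlap, the 3 others with the smallest p, and up to 3 genes of each other list. Values of further ER genes and of the cell type markers named were chosen after they were seen. The planned reading of protein C termini was not made, since no protein table was used here. Replicate numbers are shared by the groups, and the deviations of same-numbered arrays from their group means correlated at 0.08, 0.05 and 0.00 over tested probesets. The numbers were not taken as pairs in the main fit. Those correlations leave out a shift shared by genes, so they cannot decide whether the numbers mark pairs. For the 39 genes both replicate 2 arrays were the highest of their group in 53.8%, beside 13.3% of all genes. The ER genes and all lists were chosen with earlier results of these data known. Alternatives were another filter, pseudocount, normalization, test, choice of probeset, the replicate number as a block and leaving out arrays.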

Additional observations from a re-analysis of the deposited data

How the results depend on the processing

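The count of ER genes called was 2 with a trended, robust prior (Canx, Ero1a), 0 to 2 when single arrays were left out (2 without shSCR replicate 2: Herpud1, Sdf2l1) and 0 in the other settings. The median ER difference stayed above 0, from 0.059 to 0.17, when single arrays were left out. Over all genes, 607 of 15145 were called in the main setting. The count on the same genes was 336 with the replicate block, 978 with log2(signal + 16), 1281 with the trended prior and 997 with SAM. It was 372 of 19288 with no filter and 996 of 10358 with a filter at the array median. Without single arrays it ran from 149 of 15018 to 333 of 15024, and without both replicate 2 arrays it was 151 of 14844. The replicate numbers were not taken as pairs, and the block called 0 of 39 ER genes.

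Among the other lists, the trended prior, with 8.46% of all genes called, called 1 gene of N-glycosylation and the calnexin cycle (Ostc, higher). It also called 3 disulfide and prolyl enzymes (Erp29 and Plod1 higher, Qsox1 lower), 1 degradation gene (Fam8a1, lower) and 2 COPII genes (Sec16a and Tmed10, higher). The median filter called 1, 1, 1 and 2 genes of these lists. They were Mogs (lower) and not Ostc, Erp29 (higher), Fam8a1 (lower), and Sec16a and Tmed10 (higher). With log2(signal + 16), 1 degradation gene (Fam8a1) and the same 2 COPII genes were called, and with SAM 1 degradation gene (Fam8a1). The call of Erp29 was lost, leaving 0, with the replicate block, no filter, array weights and without both replicate 2 arrays. The last setting also left 0 other stress, COPII and heat shock genes. Without single arrays the counts were 0 (disulfide and prolyl, glycosylation, degradation), 0 to 3 (other stress), 0 to 1 (COPII) and 0 to 1 (heat shock).

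In the settings run, 29 of the 39 differences kept their sign and 10 did not, among them Selenok (0.15 with all arrays) and Pdia4 (0.11). A further quantile normalization gave -0.020 for Calr, 0.0046 for Ero1b and 0.013 for Eif2ak3. The mean of probesets gave -0.036 for Ppp1r15b. Without both replicate 2 arrays Ero1b was 0.15 and Ppp1r15b -0.034. Without single arrays the ranges were -0.012 to 0.075 (Calr), -0.0082 to 0.24 (Pdia4), -0.0082 to 0.15 (Pdia6), -0.17 to 0.20 (Ero1b), -0.024 to 0.16 (Sel1l), -0.14 to 0.020 (Edem1), -0.023 to 0.17 (Edem2), -0.026 to 0.29 (Selenok), -0.076 to 0.053 (Eif2ak3) and -0.047 to 0.080 (Ppp1r15b). The cause of these changes of sign was not tested. Settings that leave out arrays also rest on fewer values. Selenok, Derl3 and Ero1b lie closest to the detection level.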
